A study of Homo sapiens with 20 samples.

Results

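The HOX genes encode homeodomain transcription factors that set the identity of cells along the head-to-tail axis of the embryo. In humans they lie in the HOXA, HOXB, HOXC and HOXD clusters on chromosomes 7, 17, 12 and 2, and their order along each cluster follows the order in which they are used along the body. The genes described here are 38 protein-coding genes of GENCODE release 44 (GRCh38) whose symbol is HOXA, HOXB, HOXC or HOXD plus a number, with the long non-coding RNAs (lncRNAs) HOTAIR, HOTTIP, HOXA-AS2 and HOXA-AS3. These 42 members, of which 38 are among the 20033 protein-coding genes on chromosomes 1 to 22, X and Y, comprise 13 in HOXA, 10 in HOXB, 10 in HOXC and 9 in HOXD. Among the coding genes, 7 belong to the anterior paralog groups (1 to 3), 15 to the central groups (4 to 8) and 16 to the posterior groups (9 to 13).

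The libraries came from PC-3, an established prostate cancer cell line, with no treatment given in the labels. Wild-type (WT) cells were compared with PSD10 cells, in which the kinase gene SLK is knocked out (SLK-KO). Chromatin was immunoprecipitated with an antibody against c-Myc (MYC), a transcription factor that binds the E-box CACGTG, or against RNA polymerase II (POL2), and each antibody and genotype had 3 libraries described as biological replicates. The labels do not say whether PSD10 is 1 clone, so loss of SLK and other differences of that line cannot be told apart, and p-values measure the spread between these libraries.

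In many tissues HOX clusters are held silent by Polycomb complexes and opened by trithorax-group proteins, often as neighbouring blocks of active and inactive genes. Adult cells commonly keep a HOX pattern that reflects where in the body they arose, and posterior genes such as HOXB13 belong to the pattern of the prostate. A POL2 summit at a promoter marks where the polymerase was enriched, and does not by itself give an amount of transcript.

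The data were lists of peak summits, 1 list per library, each summit with a score that is used here to rank it within its list, rank 1 being the best. The POL2 lists held 5047 to 17126 summits in WT and 15436 to 19017 in SLK-KO, and the MYC lists 201 to 365 and 988 to 1420. Read depth is unknown, so a longer list, a deeper library and stronger enrichment cannot be told apart, and ranks from lists of different length show no change. WT POL2 replicate 2 had the shortest POL2 list, and results that rest on it are given with and without it. SLK itself had a POL2 summit in 2 WT and 3 SLK-KO libraries, which checks nothing about its loss. POL2 summits lay at 5 of 5 epithelial marker genes in at least 1 library and at KRT8, KRT18 and KRT19 in all 6. Of 3 prostate markers, FOXA1 and TMPRSS2 were marked in all 6 libraries and KLK3 in 0. Of 6 markers of other cell types, PECAM1 had a summit in 1 library and COL1A1 in 4.

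The stretches printed next are the promoters and sites on which the account turns: HOX starts with POL2 in 5 or 6 libraries (one of them the single promoter stretch that held both a HOX MYC summit and an E-box), the stretch beside HOXA6 with POL2 in 3 SLK-KO and 0 WT libraries, and HOXD promoters that carry the same E-box and had no POL2 summit. All are from RefSeq (GRCh38.p14), written 5′ to 3′ on the strand of the gene up to the base before its RefSeq start, with transcribed untranslated sequence left out. Capitals mark 3 motifs: the E-box CACGTG, which reads alike on both strands, the TATA element TATAAA on either strand, and the CCAAT box on either strand (a match on the other strand is printed as its reverse complement).
HOXA9, minus strand, chr7:27165538-27165787: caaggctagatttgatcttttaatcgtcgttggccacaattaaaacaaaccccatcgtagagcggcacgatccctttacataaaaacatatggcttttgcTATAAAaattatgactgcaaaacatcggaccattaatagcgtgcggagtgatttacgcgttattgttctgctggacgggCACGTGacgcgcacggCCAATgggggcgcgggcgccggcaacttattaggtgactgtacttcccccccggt
HOXA4, minus strand, chr7:27130781-27131007: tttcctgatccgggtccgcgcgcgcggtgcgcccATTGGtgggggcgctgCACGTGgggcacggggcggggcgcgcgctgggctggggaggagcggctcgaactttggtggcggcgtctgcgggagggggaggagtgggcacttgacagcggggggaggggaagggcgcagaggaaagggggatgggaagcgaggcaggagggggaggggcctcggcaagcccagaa
HOXA3, most distal start, minus strand, chr7:27152584-27152833: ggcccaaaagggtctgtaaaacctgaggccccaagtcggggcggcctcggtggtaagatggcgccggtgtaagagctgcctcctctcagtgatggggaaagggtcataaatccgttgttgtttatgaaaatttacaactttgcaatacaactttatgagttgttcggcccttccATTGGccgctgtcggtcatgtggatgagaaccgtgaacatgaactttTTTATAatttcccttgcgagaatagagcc
HOXA3, an internal start beside HOXA6, minus strand, chr7:27150951-27151200: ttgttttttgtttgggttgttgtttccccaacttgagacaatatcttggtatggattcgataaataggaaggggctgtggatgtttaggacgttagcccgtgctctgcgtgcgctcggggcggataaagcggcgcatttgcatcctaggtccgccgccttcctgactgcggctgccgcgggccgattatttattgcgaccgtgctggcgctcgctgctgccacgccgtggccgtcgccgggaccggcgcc
HOXD13, plus strand, chr2:176092471-176092720: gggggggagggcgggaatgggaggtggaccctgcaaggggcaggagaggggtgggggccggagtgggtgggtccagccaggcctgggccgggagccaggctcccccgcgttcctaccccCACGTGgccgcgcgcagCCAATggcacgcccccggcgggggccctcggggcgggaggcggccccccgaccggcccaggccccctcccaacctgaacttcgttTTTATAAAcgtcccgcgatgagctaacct
HOXD10, plus strand, chr2:176116528-176116777: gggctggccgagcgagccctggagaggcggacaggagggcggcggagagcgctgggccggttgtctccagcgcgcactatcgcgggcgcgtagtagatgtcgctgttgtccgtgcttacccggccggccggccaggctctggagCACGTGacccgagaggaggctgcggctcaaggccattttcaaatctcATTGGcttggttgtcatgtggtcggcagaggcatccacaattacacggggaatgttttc
The E-box of the HOXA9 stretch starts at position -71, its TATAAA at -150 and its CCAAT at -55, counted back from the first transcribed base. The E-box starts at -200 in HOXA4, -131 in HOXD13 and -106 in HOXD10. The HOXA3 stretches hold no E-box. The stretch beside HOXA6 holds none of the 3 motifs.

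POL2 was found at a somewhat smaller share of coding HOX genes than of all coding genes in each of the 6 libraries. The clusters differed widely. A gene is called marked in a library where a summit lies at most 1 kb from any of its transcription start sites (TSSs). POL2 marked 21 of the 42 members in at least 1 library, including 17 of the 38 coding HOX genes (44.7%) against 53.7% of all coding genes. In all 6 libraries POL2 marked 5 members, HOXA9, HOXA10, HOXA11, HOXC4 and HOXC6, which is 13.2% of the coding HOX genes against 18% of all coding genes. With a 500 bp window HOXA9 and HOXC4 were still marked in all 6, in lists of equal length HOXA9 and HOXA11 were, and without WT replicate 2 there were 13 members marked in all 5 libraries. HOXA had 10 of 13 members marked in at least 1 library, HOXB 6 of 10, HOXC 4 of 10 and HOXD 1 of 9. By position, 4 of 7 anterior, 6 of 15 central and 7 of 16 posterior genes were marked in at least 1 library, and so were all 4 lncRNAs. Some members were marked only through summits nearer to a TSS of another gene. When each summit was given only to the gene of its nearest TSS, HOXA-AS2, HOXA-AS3, HOXA11, HOXB2 and HOXC6 were marked in no library. The 21 members without a POL2 summit in any library were HOXA2, HOXA5, HOXA7, HOXB1, HOXB4, HOXB7, HOXB8, HOXC5, HOXC8, HOXC10, HOXC11, HOXC12, HOXC13, HOXD1, HOXD4, HOXD8, HOXD9, HOXD10, HOXD11, HOXD12 and HOXD13. Each list holds called peaks only, so a gene without a summit may still carry POL2 below the caller's threshold.

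**Figure D1:**
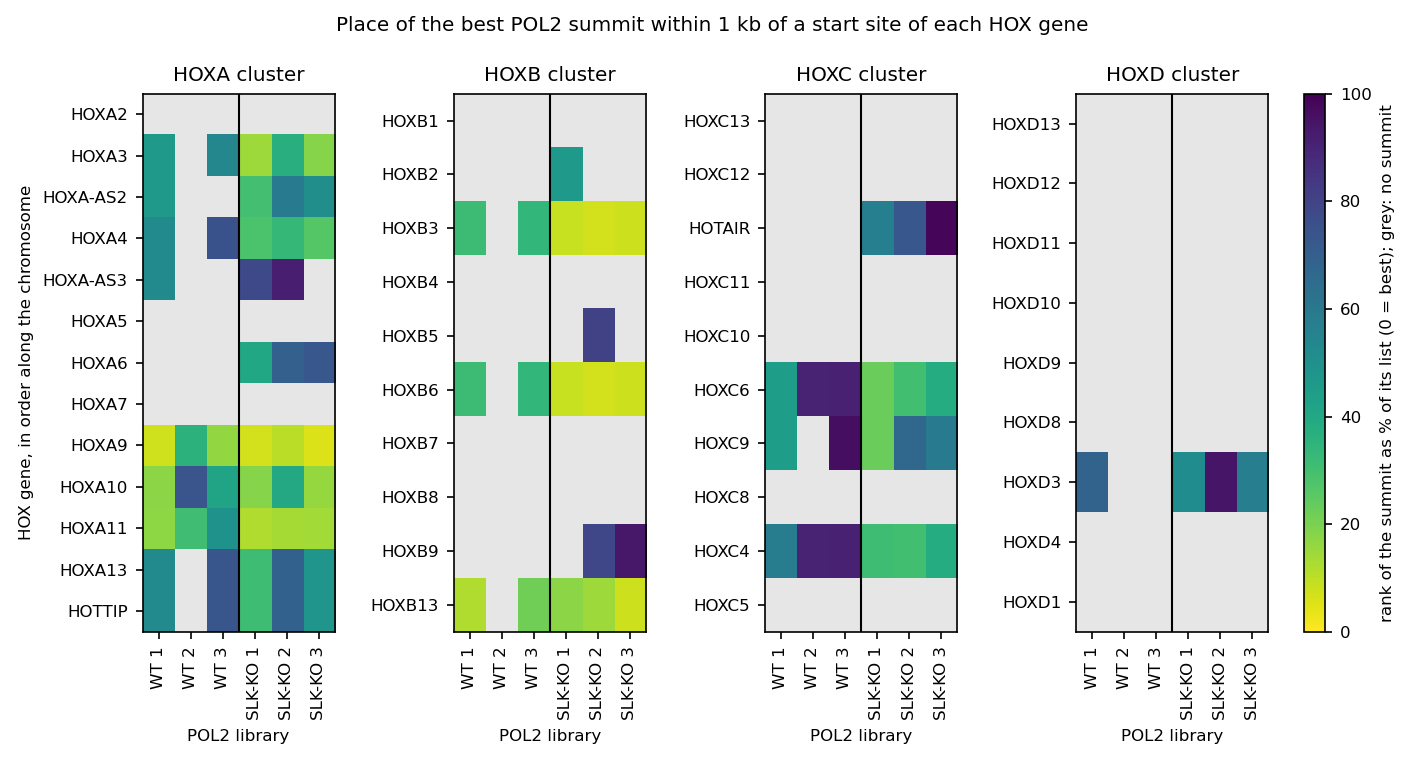
Each cell gives, for 1 HOX gene (rows, in order along the chromosome) and 1 POL2 library (columns, WT left and SLK-KO right of the line), the rank of the best POL2 summit that marks it as a percent of the list, 0 being the best and grey meaning no summit. HOXA9, HOXA10, HOXA11, HOXC4 and HOXC6 are coloured in all 6 columns, and HOXD is grey except for HOXD3.

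The coding HOX genes marked by POL2 numbered 13, 5 and 12 in the WT libraries and 15, 16 and 15 in the SLK-KO libraries. As a percent of the 38 genes the mean ± SD of 3 libraries was 26.3% ± 11.5 in WT and 40.4% ± 1.52 in SLK-KO, a difference of 14 percentage points with ranges that did not overlap. Over all coding genes the same measure was 33.9% ± 14.2 and 47.1% ± 1.92, a difference of 13.2 points with overlapping ranges, so the HOX difference was close to that of genes in general. Without WT replicate 2 the HOX difference was 7.46 points. Over all coding genes the shares were then 47.3% and 35.3% in WT replicates 1 and 3 and 49%, 45.1% and 47.2% in SLK-KO. When every list was cut to its 5047 best-scored summits, the length of the shortest, 4, 5 and 6 coding HOX genes remained in WT and 9, 7 and 8 in SLK-KO. That is 13.2% ± 2.63 and 21.1% ± 2.63, a difference of 7.89 points with ranges that did not overlap but lay 1 gene apart, beside 1.75 points over all coding genes (22.5% ± 2.99 and 24.2% ± 0.168). Without WT replicate 2, and with the other 5 lists cut to their common length of 9925 (a setting chosen after seeing the data), the HOX difference was 1.75 points, beside 1.59 points over all coding genes. The HOX genes that remained were few: 1 gene of 38 is 2.63%. In the lists of 5047, HOXB3 and HOXB6 shared a summit in each library that held them. HOXC6 shared its summit there with HOXC4 or HOXC9. With each shared summit counted once the WT and SLK-KO ranges would touch, so their separation rests on genes that share a summit.

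**Figure D2:**
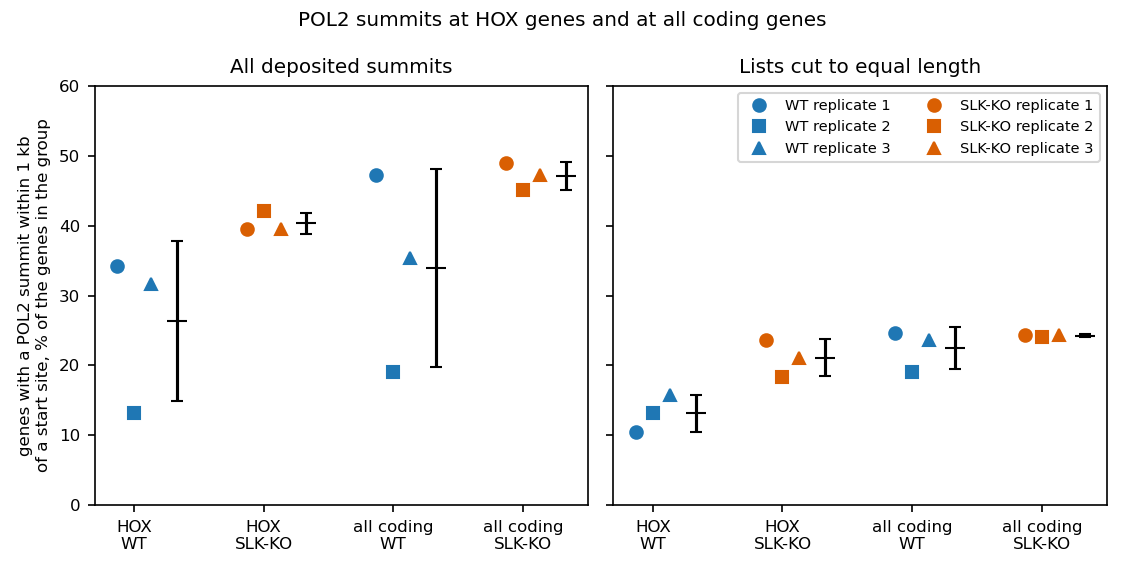
Points give the percent of the 38 coding HOX genes and of all 20033 coding genes that POL2 marked in each library, from all deposited summits (left) and from lists cut to 5047 summits (right), with black bars for the mean and SD of 3 libraries. WT replicate 2 is the lowest point at 13.2% of HOX genes in the full lists, and in the shortened lists the WT points lie at 10.5% to 15.8% and the SLK-KO points at 18.4% to 23.7%.

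In the WT libraries HOX summits stood lower in their lists than those of coding genes in general. The median rank of the best summit, as a percent of the list length, was 43.8%, 73.5% and 51.3% over coding HOX genes in WT against 28.2%, 39.7% and 36.4% over all coding genes with a summit. In the SLK-KO libraries the HOX medians were 22.9%, 35.4% and 26.2% against 26.8%, 30.4% and 29.8%. HOX summits were thus placed below the general median in 3 of 3 WT libraries and 1 of 3 SLK-KO libraries. In lists of equal length, with percents still taken of the full list, they were below it in 3 of 3 and 1 of 3 as well, but by little in WT replicate 1 (14.3% against 14.1%), and the SLK-KO library below it was replicate 1 (14.6% against 12.6%) and no longer replicate 2 (13.3% against 15.4%). The difference between genotypes was not tested on these medians.

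HOXA9 (ENSG00000078399.19, chromosome 7, 27162438 to 27175180, minus strand), a posterior gene well known from leukaemia, was the best-placed HOX gene for POL2 in 4 of the 6 libraries, the exceptions being WT replicate 2, where HOXA11 ranked better, and SLK-KO replicate 2, where the HOXB3 and HOXB6 site did. Its best summits ranked 1239, 1800 and 1613 in WT and 1334, 1625 and 887 in SLK-KO, at 5.44% to 35.7% of the list. The genotypes overlapped, with the best rank in SLK-KO replicate 3 and the worst in WT replicate 2. All 6 summits lay between 27165476 and 27165507 on chromosome 7, 19 to 34 bp from an annotated TSS and just downstream of the HOXA9 stretch printed above, so the position varied by no more than 31 bp between libraries. Up to 6 POL2 summits per library lay within 1 kb of one of its 7 annotated TSSs, which are spread over 9723 bp.

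HOXA10 and HOXA11, its posterior neighbours with known roles in the developing uterus, were also marked in every library. At HOXA10 the best ranks were 2969, 3708 and 4120 in WT and 3445, 6117 and 2604 in SLK-KO. At HOXA11 they were 2897, 1552 and 4846 in WT and 2279, 2059 and 2248 in SLK-KO. In both genes the genotypes overlapped, and at HOXA11 the 3 SLK-KO ranks lay between the WT ranks. The summits were not at 1 place. WT replicate 2 and SLK-KO replicate 2 had their best HOXA11 summits at 27184459 and 27184490. That site lay 17 bp from a TSS of the antisense RNA HOXA11-AS. The other 4 libraries had theirs between 27185322 and 27185450, 90 to 218 bp from the HOXA11 TSS. This second site lay 16 bp from another TSS of HOXA11-AS. Summits carry no strand, so POL2 of HOXA11 and of HOXA11-AS cannot be told apart at either site. HOXA10 was counted in WT replicate 1 through a summit at 27175273 that lay 953 bp from its TSS and close to the outermost TSS of HOXA9.

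HOXC4 and HOXC6, central genes whose transcripts overlap, shared most of their POL2 evidence. HOXC4 had ranks of 9860, 4569 and 9023 in WT and 5934, 4645 and 6224 in SLK-KO, at 57.6%, 90.5% and 90.9% of the WT lists and 31.2%, 30.1% and 38.2% of the SLK-KO lists. These percents are of lists of unequal length and show no change between genotypes. The rank of 4569 in WT replicate 2 was better than every SLK-KO rank. In lists of equal length 1 WT and 1 SLK-KO library held HOXC4. The genotypes overlapped there, with a mean log2 rank difference (WT minus SLK-KO) of -0.01. Without WT replicate 2, in lists cut to 9925 summits (chosen after seeing the data), HOXC4 was better placed in SLK-KO, by 0.76. All 6 HOXC4 summits lay between 54016713 and 54016944 on chromosome 12, 13 to 218 bp from the HOXC4 TSS. HOXC6 was counted through the same site, 816 to 982 bp from one of its TSSs, in WT replicates 2 and 3 and SLK-KO replicates 2 and 3, and through a HOXC9 site in the other 2 libraries. When the window was 500 bp, HOXC6 had no POL2 summit in any library.

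A further 8 members were marked in every library except WT replicate 2: HOXA3, HOXA4, HOXA13, HOTTIP, HOXB3, HOXB6, HOXB13 and HOXC9. HOXB13, the posterior gene of the prostate and urogenital tract, ranked 2014 and 2164 in WT replicates 1 and 3 and 3300, 2246 and 1215 in SLK-KO, within 100 bp of its TSS in each. The genotypes overlapped, and HOXB13 was among the best-placed HOX genes where it was found, at 7.45% to 21.8% of the list. HOXA13, a posterior gene of limb and genital development, and the lncRNA HOTTIP, which is transcribed away from it, shared their best summits, at ranks 8945 and 7255 in WT and 5928, 10641 and 7820 in SLK-KO.

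HOXA3 and HOXA4 are anterior and central HOXA genes. HOXA3 ranked 7916 and 5334 in WT replicates 1 and 3 and 2773, 5759 and 2961 in SLK-KO, with summits 5 to 69 bp inside its most distal start, whose upstream stretch is printed above. HOXA4 ranked 8905 and 7437 in WT and 5420, 5155 and 4264 in SLK-KO, 126 to 287 bp upstream of its start, inside the HOXA4 stretch printed above in WT replicate 1 and just upstream of it in the other 4 libraries. At HOXA4 every SLK-KO rank was better than both WT ranks, and at HOXA3 SLK-KO replicate 2 fell between them. HOXC9 ranked 7503 and 9546 in WT and 4360, 10265 and 9596 in SLK-KO, with overlap.

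HOXB3 (ENSG00000120093.12, chromosome 17, 48548870 to 48604912) and HOXB6 (ENSG00000108511.10, 48595751 to 48604992), both on the minus strand, were the only members with ranks that did not overlap between the genotypes in lists of 5047 summits. Both were counted through 1 site between 48604943 and 48604965 on chromosome 17, 21 to 53 bp from their distal TSSs, which lie close together, so they are 1 observation. The summits of the 5 libraries fall between the 2 TSSs, and when each summit was given only to the gene of its nearest TSS, neither gene kept ranks that separated the genotypes. In the full lists the site ranked 5360 and 3332 in WT replicates 1 and 3, was not called in WT replicate 2, and ranked 1625, 1043 and 1264 in SLK-KO. It stood at 31.3% and 33.6% of the WT lists and at 8.54%, 6.76% and 7.76% of the SLK-KO lists, better placed in all 3 SLK-KO libraries than in any WT library. In the shortened lists only WT replicate 3 still held it, and the mean log2 rank was 1.77 higher in WT, that is, worse (exact two-sided permutation p = 0.1, the smallest that 3 against 3 libraries allow, Benjamini-Hochberg adjusted p = 0.434 over 6784 genes). No gene of the 6784 had an unadjusted p under 0.05, since the design cannot reach it.

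These 2 members of 11 with a summit in the shortened lists compare with 13.6% of all coding genes that were better placed in SLK-KO without overlap. In the other direction, better placed in WT, there were 0 of 11 members against 9.46% of all coding genes. Leaving out WT replicate 2 and cutting the other 5 lists to 9925 summits, a setting chosen after seeing the data, gave 6 of 18 members better placed in SLK-KO, beside 18% of all coding genes, and 0 of 18 better placed in WT, beside 17.5%. The 18 also held the lncRNAs HOXA-AS2, HOXA-AS3 and HOTTIP, which have no part in the share of coding genes. The 6 were HOXA4, HOXA11, HOXC4, HOXC6, HOXB3 and HOXB6. They stem from 4 places in the genome, since HOXB3 and HOXB6 share a site and HOXC4 and HOXC6 share most of theirs. The mean log2 rank difference was 1.71 for HOXB3 and HOXB6 and 0.71 to 0.77 for the other 4. This setting differs from the first in the number of WT libraries, the list length and the genes tested (9469), so the counts of the 2 settings are each read against their own background only.

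**Figure D3:**
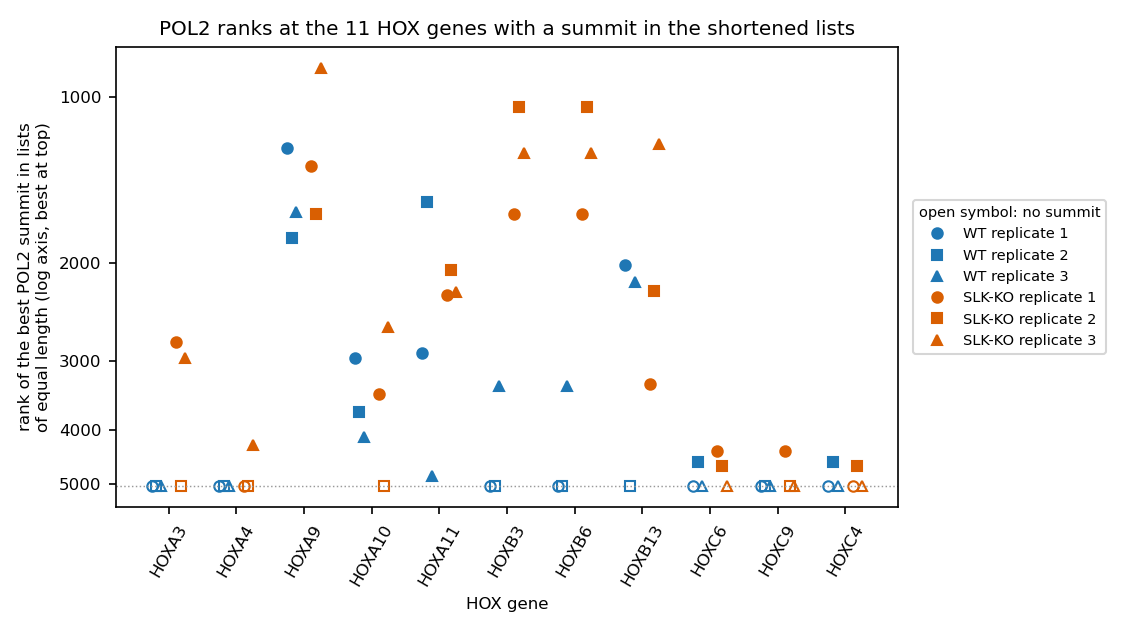
For the 11 HOX genes with a POL2 summit in the lists cut to 5047, the rank of the best summit is plotted by library on a log axis with the best ranks at the top, and open symbols on the dotted line mean that the gene had no summit in that library. At HOXB3 and HOXB6 the 3 SLK-KO ranks, 1043 to 1625, all lie above the single WT rank of 3332, and at the other 9 genes the genotypes overlap.

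HOXA6 and HOTAIR had a POL2 summit in 3 SLK-KO and 0 WT libraries. They are 2 of the 21 members with a summit in any library, beside 2.87% of the 10765 coding genes marked in any library. The 21 include 17 coding genes, HOXA6 among them. HOTAIR is a lncRNA, and no share over lncRNA genes is given here. The reverse, 3 WT and 0 SLK-KO libraries, held 0 of 21 members, beside 0.0186% of all coding genes. HOXA6 (ENSG00000106006.6, chromosome 7, 27145396 to 27150603, minus strand), a central gene, ranked 7725, 10718 and 11881 in the SLK-KO lists, and the HOXA6 site between 27151076 and 27151157 lies inside the HOXA3 stretch without motifs printed above, 473 to 554 bp from the HOXA6 TSS. The nearest WT summits were 1374, 14334 and 1357 bp away. HOTAIR (ENSG00000228630.7, chromosome 12, 53962308 to 53974956, minus strand), the HOXC lncRNA known for its link to Polycomb, ranked 10808, 11254 and 16040, with summits 301 to 352 bp from its TSS between 53974604 and 53974655, and the nearest WT summits were 21072 bp away or more. This site also lies inside HOXC11 (53973126 to 53977643, plus strand). Summits carry no strand, so POL2 of the 2 genes cannot be told apart there.

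In SLK-KO replicates 1, 2 and 3 the scores of these summits were 10.9, 5.15 and 4.64 at HOXA6 and 6.52, 4.53 and 1.73 at HOTAIR. In lists of equal length, 0 of 11 members were in 3 SLK-KO and 0 WT libraries, beside 2.95% of all coding genes, and 0 of 11 in 3 WT and 0 SLK-KO libraries, beside 1.34%. With a score of at least 5 neither gene kept the pattern. With a score of at least 10 the pattern was instead shown by HOXA3, HOXA4, HOXC4 and HOXC6. HOXC4 and HOXC6 share most of their summits, and at that minimum WT replicate 2 held no summit in any HOX region. No share of all coding genes was taken at these minimums, so these genes are not read as a result about HOX. At a window of 2 kb HOXA6 lost the pattern and HOXC11, whose gene body holds the HOTAIR site, gained it.

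The remaining marked members had POL2 in few libraries. HOXA-AS2 and HOXD3 had a summit in 1 WT and 3 SLK-KO libraries, HOXA-AS3 in 1 and 2, HOXB9 in 0 and 2, and HOXB2 and HOXB5 in 0 and 1. HOXD3, an anterior gene, was the single marked member of HOXD, with ranks of 11644 in WT replicate 1 and 9732, 14588 and 9342 in SLK-KO, all at its distal start on chromosome 2 between 176136572 and 176136803. HOXB2 ranked 8770, HOXB5 12476, and HOXB9 12138 and 15266.

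Counted as regions, from the first to the last member plus up to 5 kb on each side, the clusters held POL2 very unevenly. The HOXA region (115 kb) held 19, 8 and 18 POL2 summits in WT and 18, 23 and 19 in SLK-KO, which is 6.94 to 20 per 100 kb, where the whole genome had 0.162 to 0.614 per 100 kb. The HOXB region (210 kb) held 6, 1 and 7 in WT and 7, 11 and 6 in SLK-KO, the HOXC region (127 kb) 3, 1 and 2 and then 4, 4 and 4, and the HOXD region (108 kb) 1, 0 and 0 and then 1, 1 and 1. In HOXA, HOXB and HOXD the genotypes overlapped, and in HOXC every SLK-KO library held more than every WT library. These counts are from full lists of unequal length, and no share of other regions with such a separation is given here. Over the 4 regions there were 22 ± 10.4 summits in WT and 33 ± 5.2 in SLK-KO (mean ± SD of 3 libraries), a difference of 0.72 in the mean log2 number, beside 0.83 for the whole lists. In lists of equal length it was 0.14, and with the 5 other libraries cut to 9925 summits it was -0.22 (that setting was chosen after seeing the data).

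Summits 250 bp or less apart in any libraries were joined into sites. HOXA had 52 POL2 sites, of which 28 were in 1 library, 1 was in all 6 and 28 lay more than 1 kb from every member TSS. The site in all 6 was that at HOXA9. HOXB had 19 sites, 12 of them in 1 library, and its single site in all 6 libraries was at the non-HOX genes PRAC1 and PRAC2 between HOXB9 and HOXB13. HOXC had 4 sites and HOXD 1, and the HOXC site in all 6 was at HOXC4. In HOXA and HOXB most sites were thus found in 1 library, while in HOXC and HOXD none was. The parts of HOXA between HOXA9 and HOXA13 were dense with sites.

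A site between HOXA11 and HOXA13, from 27189635 to 27189816, was called in 3 WT and 0 SLK-KO libraries, at ranks of 4335, 5012 and 3103. The nearest SLK-KO summits were 4245, 498 and 585 bp away in replicates 1, 2 and 3. In the opposite direction, besides the HOXA6 and HOTAIR sites, a site inside HOXB3 from 48586008 to 48586050 was called in 3 SLK-KO and 0 WT libraries, at ranks of 10969, 10010 and 11587. The nearest WT summit was 17910 bp away or more. How often sites elsewhere in the genome were called in 3 libraries of 1 genotype alone was not counted. These sites are therefore not read as a result about the clusters. The lists carry no peak widths, so a shifted summit and a separate peak cannot be told apart at the WT-only site.

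**Figure D4:**
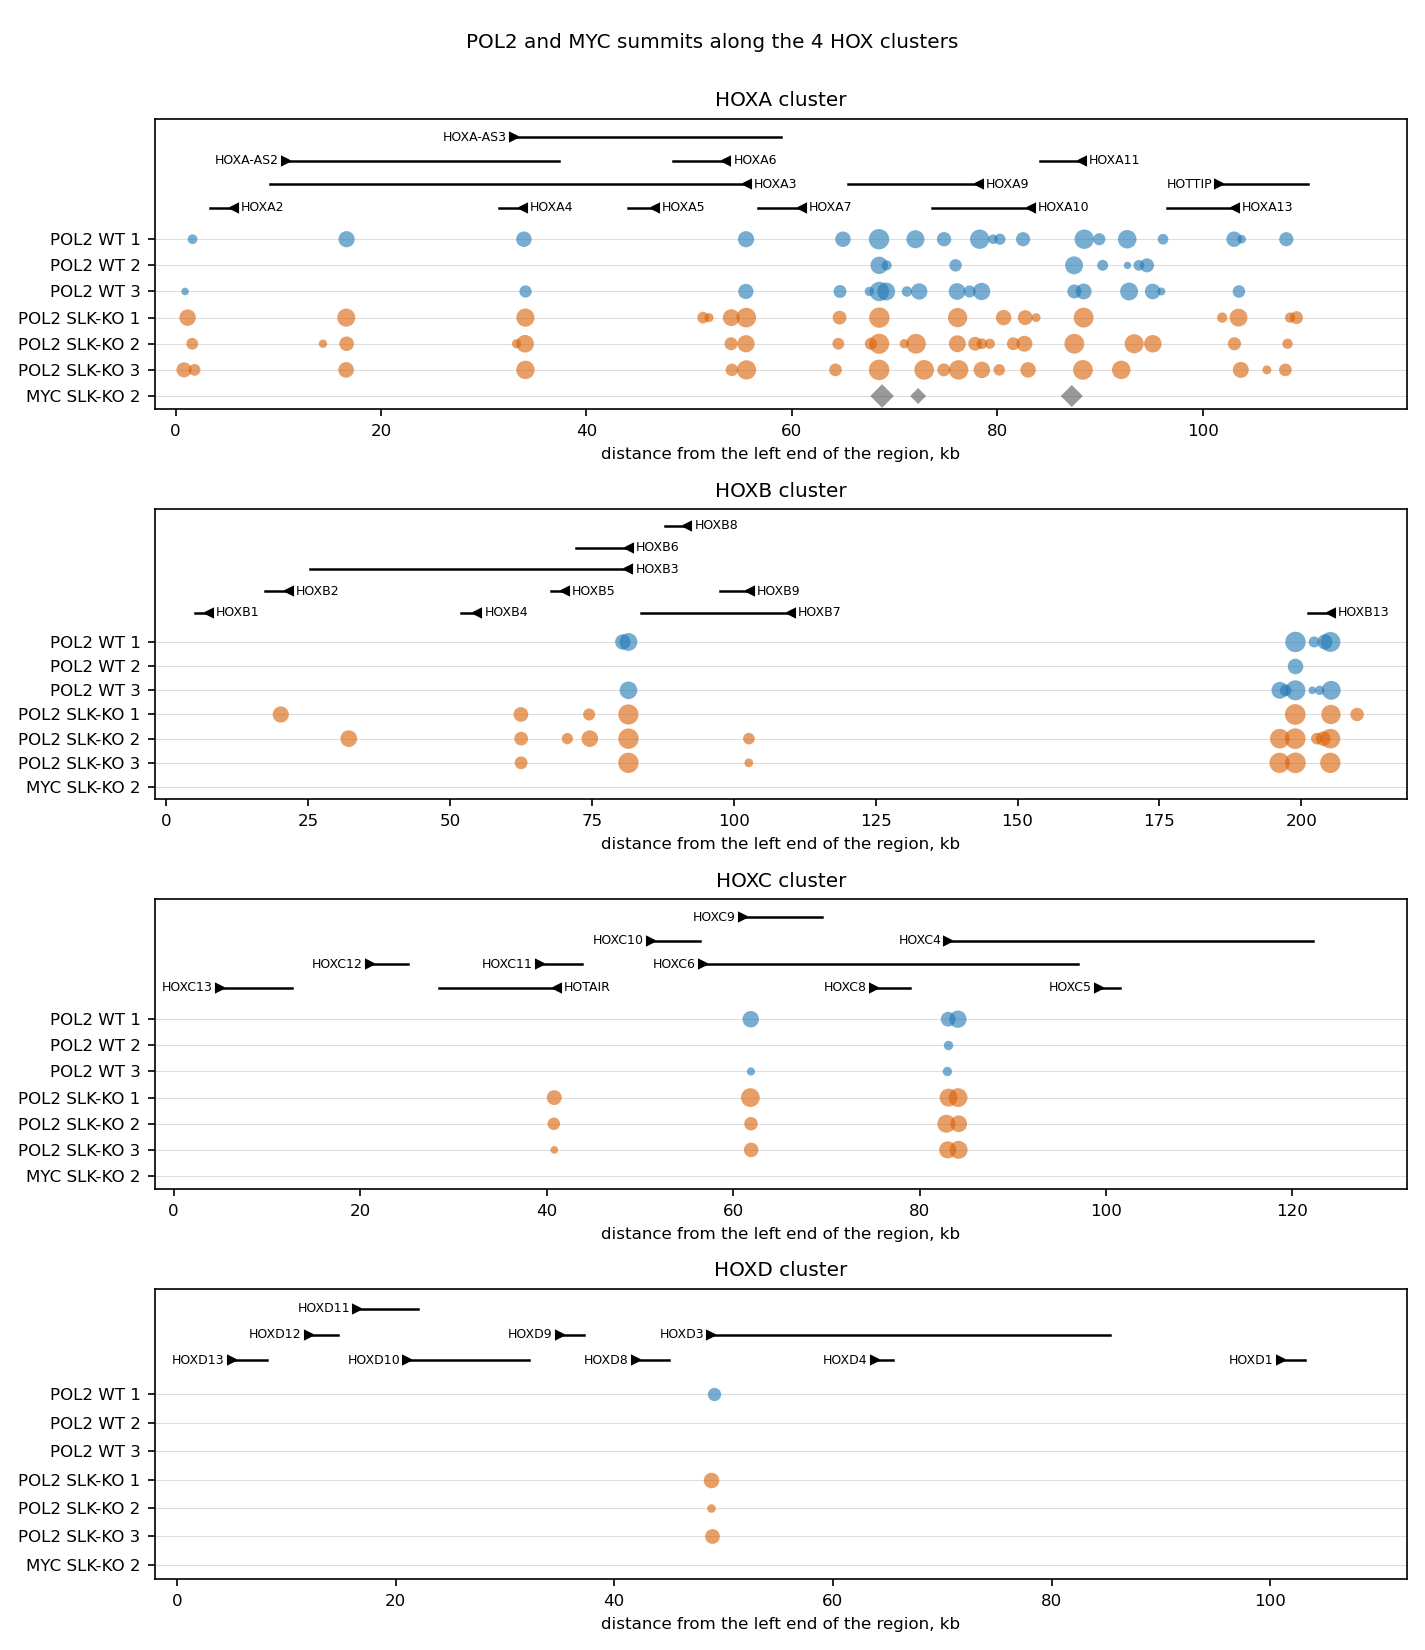
Summits of the 6 POL2 libraries and of SLK-KO MYC replicate 2 are plotted by distance in kb from the left end of each cluster region, larger symbols meaning a better rank within the list, with HOX genes drawn above as lines that start at the arrow. POL2 columns that run through all 6 libraries appear at HOXA9, HOXC4 and the PRAC1 site of HOXB, the HOXD row is empty except at HOXD3, and the 3 MYC summits (grey diamonds) lie at HOXA9 and HOXA11.

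MYC was called at few HOX genes. MYC marked 2 of the 42 members, HOXA9 and HOXA11, and only in SLK-KO replicate 2, the longest MYC list with 1420 summits. Coding HOX genes with MYC were 0% in the 3 WT libraries and 0%, 5.26% and 0% in the SLK-KO libraries, while all coding genes with MYC were 1.83%, 1.04% and 1.39% in WT and 5.49%, 6.38% and 4.66% in SLK-KO. Neither member was in 3 SLK-KO and 0 WT libraries, beside 9.04% of all coding genes with MYC in any library. In lists cut to 201 summits no HOX gene had MYC, and without SLK-KO replicate 2 none had it either. MYC below the caller's threshold was not measured.

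The better-placed HOXA9 MYC summit, at chr7:27165773, ranked 600 (42.3% of the list, score 6.49). It lay inside the HOXA9 stretch printed above, in an intron of the longer HOXA9 transcripts and 236 bp from the nearest TSS, and 283 bp from the POL2 summit of the same-numbered library. The E-box of that stretch was 165 bp from the summit, so it was not within the 100 bp used to count E-boxes. The other HOXA9 summit, at 27169283, ranked 1147 (80.8%, score 3.47). It lay in an exon of the antisense RNA HOXA10-AS and in an intron of HOXA9, 161 bp from a HOXA9 TSS, with no CACGTG within 1 kb.

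The HOXA11 summit, at 27184242, ranked 724 (51%, score 5.63) and lay in an intron of HOXA11. It was 981 bp from the HOXA11 TSS, 265 bp from a TSS of HOXA11-AS and 248 bp from the POL2 summit of SLK-KO replicate 2. This was the single HOX MYC summit with an E-box within 100 bp, 31 bp away, shown here with its flanks on the plus strand.
HOXA11 intron, chr7:27184261-27184290: ttcagcactcgcCACGTGatcccgcctttt
In that library 416 of 1413 MYC summits on chromosomes 1 to 22, X and Y (29.4%) had CACGTG within 100 bp, so 1 of 3 is close to the general share.

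E-boxes were read in the promoters for which RefSeq gave a window, nearly all of them in HOXA and HOXD. RefSeq promoter windows, 250 bases before to 50 after a start, were matched for 23 of the 42 members (30 windows), and CACGTG was in 9 of the 30 (30%) against 8.34% of 22199 windows of all coding genes. The matched members were 12 of 13 in HOXA, 8 of 9 in HOXD, 2 of 10 in HOXC and 1 of 10 in HOXB, so the windows say little about HOXB and HOXC. The 9 windows belonged to HOXA3, HOXA4, HOXA7, HOXA9, HOXD1, HOXD3, HOXD10, HOXD11 and HOXD13. Of these, HOXA9 alone had a MYC summit, and 5 (HOXA7, HOXD1, HOXD10, HOXD11 and HOXD13) had no POL2 summit in any library. CCAAT on either strand was in 20 of 30 windows (66.7%) against 34.7%, and TATAAA in 5 (16.7%) against 9.47%. The median GC content was 57.3% against 62.3%, and the median observed-to-expected CpG ratio 0.814 against 0.737. Windows of one gene can overlap, and HOXC4 and HOXC5 share 1 window, so these shares are descriptions.

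By POL2, the 19 windows of members with a POL2 summit in at least 1 library had CACGTG in 4 (21.1%), TATAAA in 4 and CCAAT in 11. The 11 windows of members without POL2 had CACGTG in 5 (45.5%), TATAAA in 1 and CCAAT in 9. The 19 windows belonged to 12 members and the 11 windows to 11. HOXA3 alone gave many of the 19, most of them without CACGTG. The 4 with CACGTG were those of HOXA3, HOXA4, HOXA9 and HOXD3. The percents of the 19 and of the 11 are thus of windows and are not compared as shares of genes. A RefSeq window need not be the start that POL2 marked: the HOXD3 window lies at 176157057, downstream of the HOXD3 site in the POL2 lists. These letters are a description of the windows and not evidence of binding.

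Genes that work with HOX proteins or control the clusters were read in the same way. Of 9 TALE homeodomain genes, whose PBX, MEIS and PKNOX products bind DNA together with HOX proteins, 6 had POL2 in at least 1 library and 0 in all 6, with none at PBX2, MEIS3 and PKNOX2. MEIS2, 1 of 2 TALE genes with a summit in the shortened lists, was better placed in SLK-KO without overlap, beside 13.6% of all coding genes. Its ranks were 4217 and 3738 in WT replicates 1 and 3 and 3416, 2549 and 2979 in SLK-KO. Of 26 Polycomb genes, 20 had POL2 in at least 1 library and 5 in all 6, with none at PHF1, RING1, RNF2, PCGF2, CBX2 and PHC1. Of the 9 Polycomb genes with a summit in the shortened lists, 2 (MTF2 and JARID2) were better placed in SLK-KO without overlap, beside 13.6% of all coding genes, and of the 20 with a summit in any library, 1 (AEBP2) was in 3 SLK-KO and 0 WT libraries, beside 2.87%. Of 13 trithorax and other HOX activator genes, 11 had POL2 in at least 1 library and 3 in all 6, with none at KMT2A and KMT2B, and DPY30, 1 of 4 with a summit in the shortened lists, was better placed in WT, beside 9.46% of all coding genes. Of 6 ParaHox and upstream genes (CDX, GSX and PDX1 among them), 0 had POL2.

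MYC was found at 0 of the 9 TALE genes and at 3 of 26 Polycomb genes (RBBP4, AEBP2 and MTF2). It was also found at 2 of 13 activators (KMT2D and KDM6B). Over all coding genes the share with MYC in at least 1 library was 9.66%. The Polycomb genes and activators named had MYC in SLK-KO libraries alone, whose MYC lists were longer than those of WT. The share of all coding genes with MYC in SLK-KO alone is not given here. KMT2D, a histone H3 lysine 4 methyltransferase, was the one with MYC in 3 SLK-KO and 0 WT libraries, at ranks of 42, 63 and 87. It is 1 of the 2 activators with MYC in any library, beside 9.04% of all coding genes with MYC in any library.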

How the data were processed

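Chromatin immunoprecipitation sequencing libraries of MYC and POL2 from WT and SLK-KO PC-3 cells were used, 12 of the 20 samples. The IgG (6) and Input (2) libraries had no part in the work. Reads of 50 bp were, per the labels, run through nf-core/chipseq 2.1.0 against GRCh38.p14, and the submitters' processing notes name BWA 0.7.18-r1243, Picard 3.2.0 and MACS3 3.0.1 among other tools. The control used for peak calling is not given in the sources used here. Each list holds the summits called in 1 library, with the authors' score, which was read from its values as the deposited −log10 of the q-value (the lowest scores lie just above 1.30103, which is −log10 of 0.05). Depth and peak widths are unknown.

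From these lists, summits were assigned to every gene with a TSS of any GENCODE 44 transcript within 1 kb, and ranked by score within the list. Lists were also cut to equal length (5047 for POL2, 201 for MYC). Ranks at equal length were compared per gene over all coding genes and the 4 lncRNAs by exact permutation, two-sided, over the 20 ways to assign 3 of 6 libraries to a genotype, on mean log2 rank, an absent gene taking the rank after the last, with Benjamini-Hochberg adjustment. The script was tested on simulated data. A gene that fits the rule for members, and some genes of the other lists, are not reported here and were left out of every count of members and lists. Members and lists were chosen with earlier results of these data known. Named with values were members in all 6 POL2 libraries, members with 3 against 0 libraries or ranks that did not overlap, and members with MYC. Other members were added after their values were seen. Deviations of libraries with the same number were hardly related (r of -0.0157 to 0.0525 for POL2), so no block was used. Alternatives were other windows, score minimums of 5 and 10, equal lists, other TSS rules, omission of each library and a replicate block. Work was done in Python 3.11.15 (pandas 2.3.3, numpy 2.4.6, scipy 1.17.1, matplotlib 3.10.9).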

Additional observations from a re-analysis of the deposited data

How the results depend on the processing

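The number of HOX members with POL2 in all 6 libraries was 5. It was 2 with a 500 bp window, 2 with a score of at least 5, 0 with a score of at least 10, 2 in lists of equal length, 2 with each summit given to the nearest TSS and 2 with 1 TSS per gene. Leaving out 1 library gave 5 to 13, the 13 without WT replicate 2. Members in 3 SLK-KO and 0 WT POL2 libraries numbered 2, but 1 at 500 bp, 0 and 4 with scores of at least 5 and 10, and 0 in lists of equal length. The counts at 500 bp and at the score minimums have no share of all coding genes beside them. Leaving out 1 library gave 2 to 4, the 4 without WT replicate 1. Members with MYC numbered 2, but 1 at 500 bp, 1 with the nearest TSS, 1 with 1 TSS per gene, 0 with a score of at least 10, 0 in lists of equal length and 0 to 2 when 1 library was left out. Members whose POL2 ranks did not overlap numbered 2, but 0 with the nearest TSS. The log2 difference in POL2 summits over the 4 clusters went from 0.72 to 0.14 in lists of equal length and could not be computed with a score of at least 10, where a library held none. Without WT replicate 2 it was 0.23. With the 5 libraries other than WT replicate 2 at equal length, chosen after seeing the data, that difference reversed to -0.22, the difference in marked HOX genes was 1.75 points, and the 3 POL2 counts were 10, 0 and 6. The cause of these changes was not tested. Replicate numbers are shared between genotypes but did not pair the libraries. With the replicate block, members that separated in every pair numbered 2, with a smallest possible p of 0.25. Of all alternatives, 94 stayed within 1 SD or 1.5 times of the reported value, 23 moved further and 1 reversed. List length and the number of libraries limit these results.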

Other observations

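Genes next to the clusters that are not HOX genes were read in the same way. Of 17 neighbours with a record in the annotation, 14 were marked by POL2 in at least 1 library and 6 in all 6, while EVX1, EVX2 and SKAP1 had none. PRAC1 and PRAC2, small genes between HOXB9 and HOXB13 known from prostate and colon, share a site that ranked 1127, 2579 and 1071 in WT and 798, 633 and 656 in SLK-KO, better placed than HOXB13 in 5 of the 5 libraries that held both. SKAP2, beside the HOXA cluster, ranked 2774, 2222 and 1908 in WT and 869, 1847 and 1194 in SLK-KO. CBX5 and ATP5MC2, beside HOXC, were likewise better placed in every SLK-KO library than in any WT library. These are 5 of the 8 neighbours with a summit in the shortened lists, where 13.6% of all coding genes with such a summit were so placed, and PRAC1 and PRAC2 are 1 observation.

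MYC marked 3 of the 17 neighbours in at least 1 library, beside 9.66% of all coding genes. CBX5, which encodes the heterochromatin protein HP1 alpha, had a MYC summit in all 6 libraries, at ranks of 183, 146 and 175 in WT and 98, 1145 and 173 in SLK-KO. ATP5MC2, an ATP synthase subunit gene, had MYC in 1 WT and 3 SLK-KO libraries, and HNRNPA3, near HOXD, in 1 and 1. The other 14 neighbours had none.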
